A study of Mus musculus with 9 samples.

Results

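The accessible chromatin of mouse embryonic fibroblasts (MEFs) was set against that of the induced pluripotent stem cells (iPSCs) at the end of their reprogramming, using the peak lists of 1 ATAC-Seq library of each. ATAC-Seq marks open chromatin by the insertion of a transposase, and each peak is a stretch where sequenced tags pile up above the library's average. Overlapping peaks of a library were merged on chromosomes 1 to 19, which gave 80012 regions in the fibroblasts (D0) and 60527 in the iPSCs. Regions of both libraries that shared at least 1 bp were joined into 1 common region, and all others were called D0-only or iPSC-only. This gave 117216 joined regions, out of 205801 when all 9 ATAC-Seq samples of the series were joined in the same way.

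The fibroblasts were isolated from mouse embryos that carry a GFP cassette after the stop codon of Oct4 (Pou5f1), and D0 was collected, unsorted, at day 0. The same cassette is in every other sample, since all were made from these MEFs by retroviruses carrying Oct4, Sox2, Klf4 and c-Myc (OSKM). The iPSCs are labelled as fully reprogrammed and unsorted, and were grown without feeder cells. The libraries between them were taken at day 3 (D3), at days 6 and 9 from cells sorted as Thy-1-negative (D6T- and D9T-), and at days 12 and 16 from cells sorted as SSEA-1-positive (D12S+ and D16S+). The remaining samples were cells of day 6 treated with siRNA against H3.3 (D6 siH3.3) or a non-targeting siRNA (D6 siNT). With 1 library per condition there is no replicate error and no test, so every difference below compares these libraries and carries no p-value. Intervals given for shares are 95% Wilson intervals over regions, and those given for single ratios are exact 95% intervals of the tag counts. Both cover counting error only.

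Open chromatin marks promoters and enhancers to which transcription factors can bind. In fibroblasts many enhancers carry sites for AP-1, the dimer of Fos and Jun family proteins, and for TEAD and RUNX factors, while in pluripotent cells Oct4, Sox2, Klf4 and Esrrb occupy many of theirs. Reprogramming replaces a mesenchymal state, rich in collagens and contractile proteins, with an epithelial and self-renewing one.

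The sequences below are 200 bp around the highest summit of regions on which the comparison turned, read from the mm9 genome on the + strand. Capitals mark matches to any of the motifs listed further on. The first 4 were open in fibroblasts and absent from, or weak in, the iPSC peak list. They are the strongest D0-only region of all, between genes near Serpina3n, the strongest D0-only region inside a gene, in an intron of 2310002F09Rik near Klk9, the promoter of the smooth muscle actin gene Acta2, and the common region inside a gene with the lowest iPSC level relative to D0, in an intron of Cyb5r3. Their capitals are TGANTCA (AP-1) except in Acta2, where they are GGAATG (TEAD) read on the other strand.
Serpina3n, chr12:105653925-105654124: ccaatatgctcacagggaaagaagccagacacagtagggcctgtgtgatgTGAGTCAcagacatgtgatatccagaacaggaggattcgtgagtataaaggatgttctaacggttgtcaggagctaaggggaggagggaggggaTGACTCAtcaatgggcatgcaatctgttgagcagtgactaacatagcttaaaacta
Klk9, chr7:51043595-51043794: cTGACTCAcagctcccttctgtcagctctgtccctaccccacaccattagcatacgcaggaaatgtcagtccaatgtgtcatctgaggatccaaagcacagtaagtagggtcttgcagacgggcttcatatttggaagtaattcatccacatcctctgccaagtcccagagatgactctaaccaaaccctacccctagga
Acta2, chr19:34329813-34330012: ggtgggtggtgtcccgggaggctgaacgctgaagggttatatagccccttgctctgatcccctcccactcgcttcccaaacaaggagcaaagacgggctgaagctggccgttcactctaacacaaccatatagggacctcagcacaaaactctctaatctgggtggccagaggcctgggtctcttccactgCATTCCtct
Cyb5r3, chr15:82997165-82997364: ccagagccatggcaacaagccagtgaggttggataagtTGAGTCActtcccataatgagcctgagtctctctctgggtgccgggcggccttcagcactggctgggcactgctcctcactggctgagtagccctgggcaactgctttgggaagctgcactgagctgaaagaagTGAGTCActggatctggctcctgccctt

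The next 6 were open in the iPSCs. Gm14124 and Stxbp5l hold the promoter region with the highest level among iPSC-only regions and the promoter with the highest ratio among common regions. Vmn2r85 holds the strongest iPSC-only region of all, shown because stretches of it recur in other iPSC-only regions, and Zfp804a is the gene nearest to the strongest iPSC-only region between genes. Zfp42 (Rex1) and Nanog are pluripotency genes, and their promoter regions were iPSC-only. The capitals are ATGCAAAT (OCT) and CCAATCA (NFY) in Gm14124, ACAATGG (SOX) in Zfp804a, GGGGCGGGG (GC box) and CCAATCA in Stxbp5l, and GGAATG, GGGNGTGG (KLF) and ATGCAAAT in Zfp42. None of the motifs was found in the windows of Vmn2r85 and Nanog.
Gm14124, chr2:150083054-150083253: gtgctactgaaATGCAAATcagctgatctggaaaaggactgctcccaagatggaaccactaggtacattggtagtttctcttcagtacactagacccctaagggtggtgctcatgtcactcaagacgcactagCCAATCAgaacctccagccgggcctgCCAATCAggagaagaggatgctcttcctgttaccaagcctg
Vmn2r85, chr10:129857084-129857283: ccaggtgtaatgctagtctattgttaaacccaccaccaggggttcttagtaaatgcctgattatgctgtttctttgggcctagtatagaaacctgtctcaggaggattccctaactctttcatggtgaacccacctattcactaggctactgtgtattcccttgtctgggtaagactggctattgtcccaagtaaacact
Zfp804a, chr2:81689098-81689297: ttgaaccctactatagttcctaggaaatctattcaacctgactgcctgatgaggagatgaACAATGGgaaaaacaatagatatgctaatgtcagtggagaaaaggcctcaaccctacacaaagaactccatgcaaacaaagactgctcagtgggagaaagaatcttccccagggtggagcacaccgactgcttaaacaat
Stxbp5l, chr16:37385128-37385327: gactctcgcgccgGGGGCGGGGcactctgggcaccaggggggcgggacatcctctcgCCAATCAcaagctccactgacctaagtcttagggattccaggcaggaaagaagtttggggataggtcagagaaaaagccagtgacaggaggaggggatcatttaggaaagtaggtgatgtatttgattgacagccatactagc
Zfp42, chr8:44392373-44392572: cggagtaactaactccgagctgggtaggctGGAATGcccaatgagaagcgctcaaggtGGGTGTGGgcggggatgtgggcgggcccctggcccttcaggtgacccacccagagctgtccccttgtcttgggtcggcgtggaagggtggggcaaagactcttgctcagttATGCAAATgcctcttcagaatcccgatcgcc
Nanog, chr6:122656978-122657177: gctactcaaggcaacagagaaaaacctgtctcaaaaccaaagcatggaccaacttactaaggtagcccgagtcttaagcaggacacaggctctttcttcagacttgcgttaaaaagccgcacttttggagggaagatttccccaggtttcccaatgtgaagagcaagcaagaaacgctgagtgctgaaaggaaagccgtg

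The D0 library held 31714845 tags and the iPSC library 26580724, and those between held from 13213117 (D9T-) to 30233396 (D3). The lowest pileup called as a peak was 11 tags at D0 and 10 in the iPSCs, which is 0.347 and 0.376 CPM (tags per 1000000 tags of the library). A region absent from a list is therefore one that stayed under about this level, not one that was closed. The number of regions ranged from 35811 at D9T-, the shallowest library, to 129532 at D6T-.

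Most accessible regions were called at one end only. Of the 117216 joined regions, 57397 (49.0%) were D0-only, 38474 (32.8%) were iPSC-only and 21345 (18.2%) were common. The excess of D0-only regions went with the longer D0 list, since equal numbers of the strongest regions of both libraries gave 40918 D0-only, 18817 common and 41060 iPSC-only regions. The common regions took in 28.3% of the D0 regions and 36.4% of the iPSC regions. Neighbouring libraries shared more, since 36.3% of the joined regions of D0 and D3 were common, as were 46.7% of those of D16S+ and iPSCs. Common regions were wider, with a median of 619 bp against 297 bp for D0-only and 308 bp for iPSC-only regions. In these bulk samples a region open in fewer cells and one less open in each cell cannot be told apart.

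Regions called at one end were also weak. Their median pileup was 0.504 CPM for D0-only and 0.564 CPM for iPSC-only regions, close to the lowest pileup that could be called. Common regions had medians of 0.694 CPM at D0 and 0.790 CPM in the iPSCs. Of the D0-only regions, 11299 (19.7%) exceeded 2 times the lowest pileup called in the iPSCs and 910 (1.59%) exceeded 4 times it. Of the iPSC-only regions, 9373 (24.4%) exceeded 2 times the lowest pileup called at D0 and 769 (2.00%) exceeded 4 times it. For the remaining regions, absence from the other list places the other library only below its lowest called pileup, and the size of the difference is not known.

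The kinds of region lay at different places relative to genes. A region was placed in a promoter if its midpoint fell in the 3 kb upstream of a transcription start site (TSS), otherwise in a genebody if it fell in a gene, and otherwise between genes. Promoters held 44.1% (43.5 to 44.8) of common regions, 17.8% (17.4 to 18.2) of iPSC-only regions and 9.72% (9.48 to 9.97) of D0-only regions. D0-only regions were mostly in genebodies (49.0%) and between genes (41.2%), and iPSC-only regions likewise (46.0% and 36.2%), as shown by the bars of region number. The highest summit lay within 500 bp of a protein-coding TSS in 48.2% of common, 12.2% of iPSC-only and 3.28% of D0-only regions. The median distance to such a TSS was 0.658 kb for common, 11.6 kb for iPSC-only and 22.8 kb for D0-only regions.

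**Figure D1:**
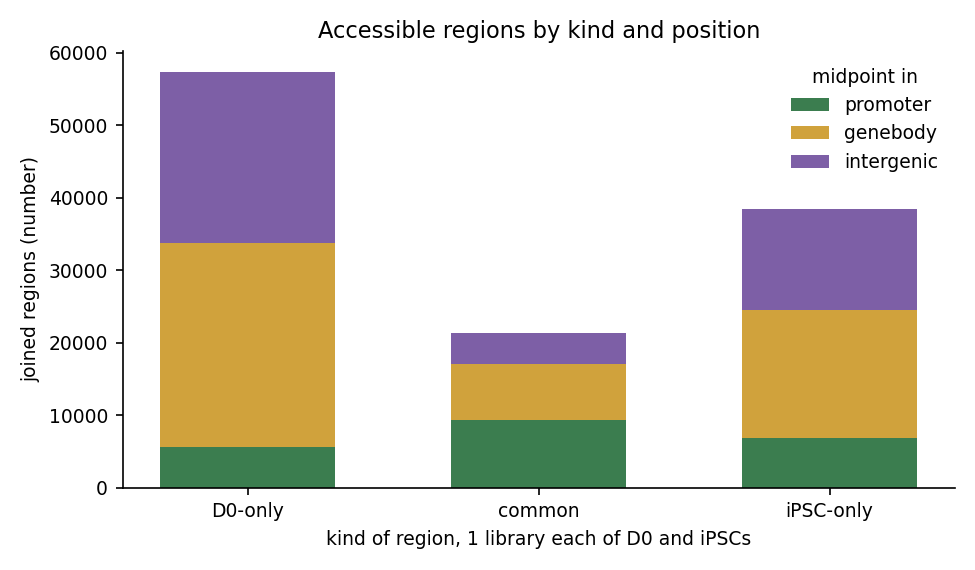
Number of joined regions (vertical axis) that were D0-only, common or iPSC-only, split by whether the midpoint lay in a promoter (3 kb upstream of a TSS), a genebody or between genes. The promoter part makes up 44.1% of the common bar but 9.72% of the D0-only bar and 17.8% of the iPSC-only bar.

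The strongest region lost from the peak list between fibroblasts and iPSCs lay between genes. The highest D0-only pileup, 121 tags (3.82 CPM, 10.1 times the lowest pileup called in the iPSCs), lay at chr12:105653709-105654463, 9.09 kb from the TSS of Serpina3n, a secreted protease inhibitor. Its pileup was 182 tags at D3 and 262 at D6T-, and then 95, 70 and 28 tags in the 3 later sorted libraries. It was thus still called in the last sorted library and absent from the iPSC list alone.

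The strongest D0-only regions in genebodies lay in an intron of 2310002F09Rik near Klk9 (chr7:51043414-51043939, 102 tags) and in an intron of Trpm6, with Rorb the nearest TSS (chr19:18964629-18965239, 101 tags). An intron of Mapkapk3, a kinase downstream of p38, held 91 tags. The region near Klk9 had 109 and 125 tags at D3 and D6T-, then 26 and 25 tags at D9T- and D12S+, and was not called at D16S+. The D0-only promoter region with the highest pileup lay 1.65 kb upstream of Mfn2, a mitochondrial fusion protein (chr4:147280077-147281039), with 89 tags at D0, 115 and 169 at D3 and D6T-, and 41, 44 and 18 in the later sorted libraries. Gm17386 and Asb5 followed with 85 tags each and Prkg2, a cGMP-dependent kinase, with 83.

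The strongest iPSC-only region, 118 tags (4.44 CPM, 12.8 times the lowest pileup called at D0), lay in an intron of Vmn2r85, a vomeronasal receptor gene (chr10:129856698-129857743). It had 20 tags at D6T-, 28 at D9T-, 84 at D12S+ and 141 at D16S+, and was not called at D3. In CPM these were 0.935, 2.12, 4.77 and 6.66, so D12S+ and D16S+ exceeded the iPSC level. The intronic regions of Skint7 (87 tags), Lrp1b, a large lipoprotein receptor (85 tags), Fggy (81 tags) and Pde8b, a phosphodiesterase (79 tags), came next. Between genes, the regions nearest to Zfp804a and Mettl15 had 84 tags each, those nearest to Gp49a 78, Fam110b 76 and Nav3 73.

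Among iPSC-only promoters, 3 of the 5 strongest belonged to predicted genes on chromosome 2. The region 99 bp upstream of Gm14124 (chr2:150082618-150083478) had 95 tags in the iPSCs, 62 at D16S+ and 29 at D12S+, and was called in no earlier library. Gm14139 had 91 tags in the iPSCs, 58 at D16S+ and 46 at D12S+, and Gm14401 had 80, 99 and 54. For Gm14401 these were 3.01, 4.68 and 3.07 CPM. The promoter of Hook1, a cytoskeletal linker protein, had 81 tags in the iPSCs but also 38 at D3, 89 and 40 in the Thy-1-negative and 80 and 178 in the SSEA-1-positive libraries, so that D0 alone lacked it. In CPM it had 3.05 in the iPSCs and 1.26 at D3. The Thy-1-negative libraries had 4.16 and 3.03 CPM there, and the SSEA-1-positive ones 4.54 and 8.41. Tc2n had 78 tags in the iPSCs and 126 at D16S+.

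Tag counts given in sentences are not scaled by depth, and the colour maps show the same regions in CPM. All 15 named D0-only regions (the 5 strongest in each of promoters, genebodies and intergenic sequence) were called at D3, D6T- and D12S+, 13 at D9T- and 3 at D16S+. All 15 named iPSC-only regions were called at D12S+ and D16S+, 11 at D9T-, 9 at D6T- and 5 at D3.

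**Figure D2:**
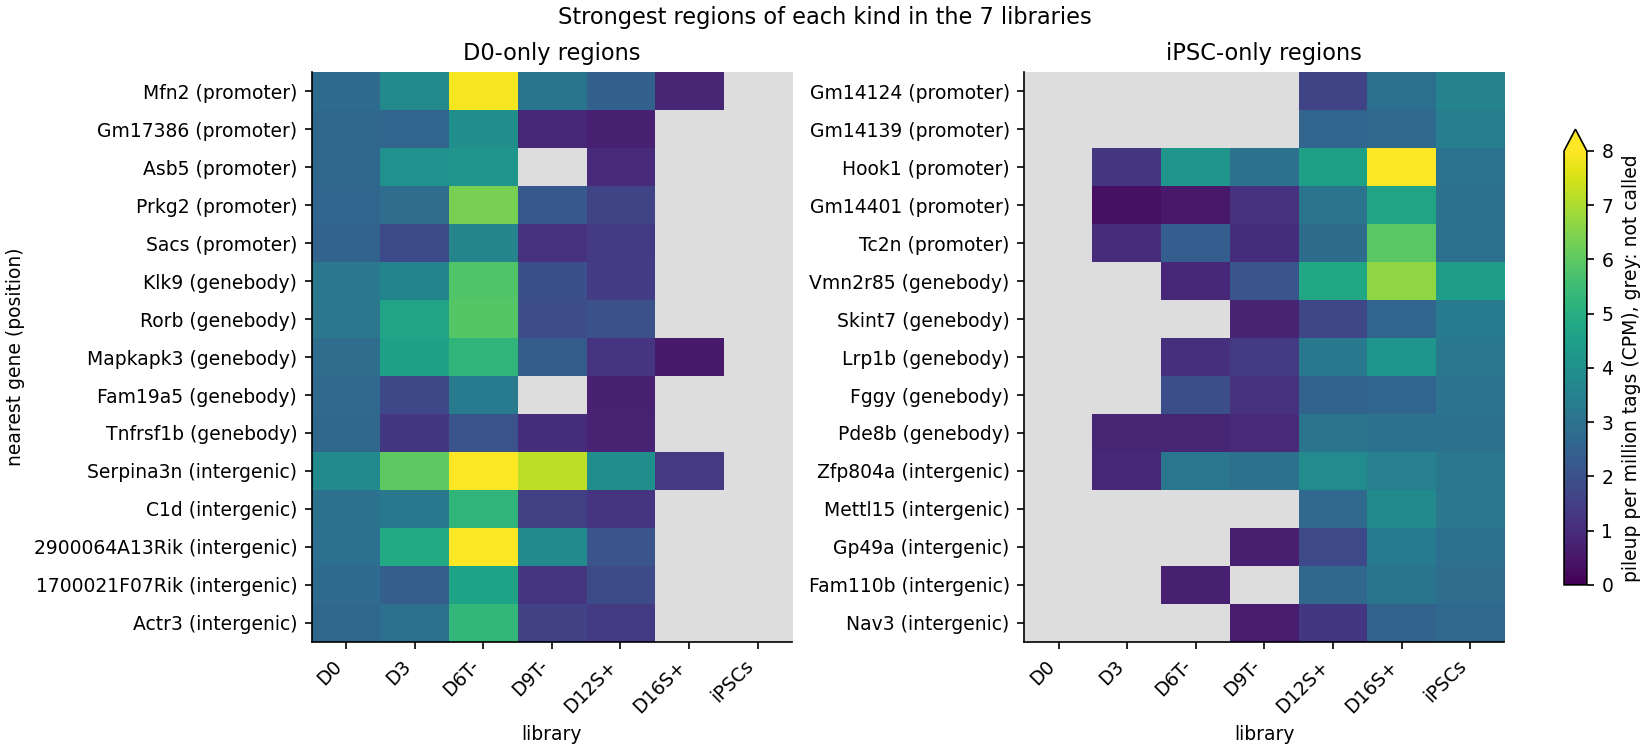
Highest pileup (CPM, colour; grey where no peak was called) in 7 libraries, left to right from D0 to iPSCs, of the 15 strongest D0-only regions (left) and the 15 strongest iPSC-only regions (right), named by the gene with the nearest TSS. The colour scale ends at 8 CPM. The left rows are mostly grey from D16S+, where 3 of 15 were called, and the right rows are filled from D12S+ on, where all 15 were called.

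Regions common to both ends differed mostly by less than 2-fold. The log2 ratio of the pileup in CPM, iPSCs over D0, had a median of 0.25, an SD over regions of 0.60 and a range from -2.87 to 3.53. Past 2-fold, 1850 of the 21345 common regions (8.67%) were higher in the iPSCs and 626 (2.93%) were higher at D0. Of all the regions past 2-fold, 74.7% were thus higher in the iPSCs. That split depended on the zero of the scale, because 39.1% were higher in the iPSCs once all ratios were centred on the median of common regions and 31.6% once they were centred on the median of common promoters. The counting interval of the ratio lay above 0 in 2921 and below 0 in 849 of all common regions. This balance also depended on the zero, since the interval lay above the median of common regions in 1434 and below it in 1608.

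Common promoters had higher ratios than other common regions. The median log2 ratio was 0.31 in promoters, 0.21 in genebodies and 0.05 between genes, as the histogram of ratios shows. Promoters made up 49.7% (47.4 to 52.0) of the regions past 2-fold higher in the iPSCs and 16.5% (13.8 to 19.6) of those higher at D0, against 44.1% of all common regions.

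**Figure D3:**
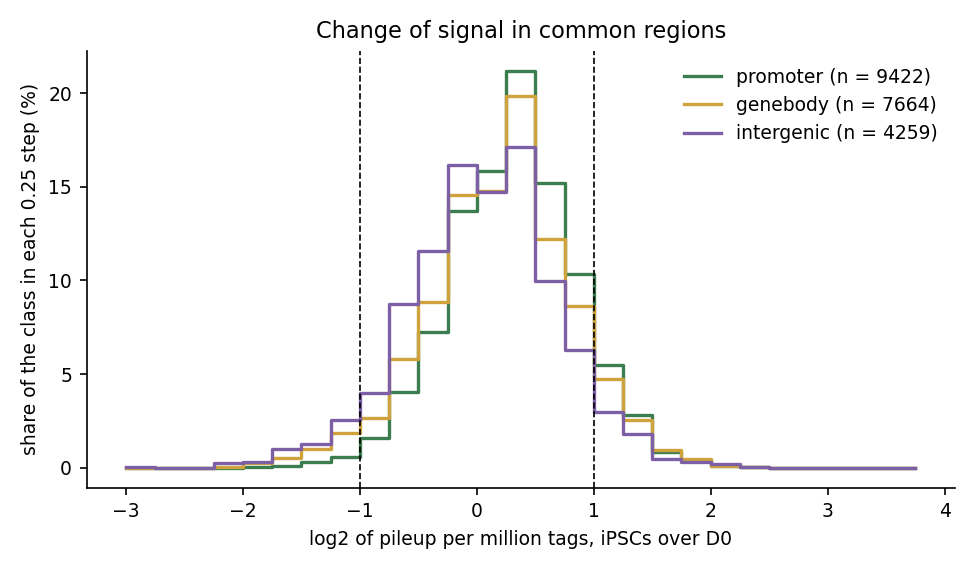
Share of common regions (vertical axis, %) in each step of 0.25 of the log2 ratio of the pileup in CPM, iPSCs over D0 (horizontal axis), for regions in promoters, genebodies and between genes. The dashed lines mark 2-fold. The promoter curve lies to the right (median 0.31) and the intergenic curve nearest to 0 (median 0.05).

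The common regions that were lowest in the iPSCs relative to D0 lay near genes of several kinds. The region 19.01 kb from the TSS of Scgb1a1, a secretoglobin (chr19:9181164-9181774), had 87 tags at D0 and 10 in the iPSCs, a log2 ratio of -2.87 (-3.98 to -1.92). The region near S100a11, a calcium-binding protein, had 89 and 11 tags (log2 ratio -2.76), and the one in the intron of Cyb5r3, a cytochrome b5 reductase, 80 and 10 tags (-2.75, -3.86 to -1.79). Among promoters the lowest ratio was that of Lfng, a glycosyltransferase that modifies Notch, with 58 and 11 tags (-2.14, -3.22 to -1.20), followed by Lsp1 (50 and 10 tags) and Trim16 (57 and 12 tags). A region between genes near Adam12, a metalloprotease of mesenchymal cells, had 79 and 14 tags. The iPSC pileups of these regions, 10 to 14 tags, were at or just above the lowest that could be called.

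The common region with the highest ratio lay between genes, 202 kb from the TSS of Samd9l (chr6:3132371-3134072), with 14 tags at D0 and 136 in the iPSCs, a log2 ratio of 3.53 (2.74 to 4.44). An intronic region of Kctd16 had 56 and 498 tags (3.41, 3.01 to 3.83). Its pileup was 179 tags at D3, 55 and 70 in the Thy-1-negative and 119 and 213 in the SSEA-1-positive libraries, and its level in CPM was lowest at D0. The promoter of Stxbp5l, a syntaxin-binding protein, had 15 and 89 tags (2.82, 2.02 to 3.72) with 50 tags at D3 and 100 at D16S+. The promoter of Gpr98, an adhesion receptor, had 19 and 85 tags, and that of Casc4 had 13 and 53. An intronic region of Kcnt2, a sodium-activated potassium channel, had 18 and 104 tags (2.79).

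Of the 5 strongest common regions, 3 matched mitochondrial DNA. The region at chr1:24618220-24623179, upstream of Gm10222, had 14589 tags at D0 and 21226 in the iPSCs (log2 ratio 0.80), and 4654 bp of it matched the mitochondrial genome at 99.9% identity. In the region at chr2:22442731-22446210, in Myo3a, 3260 bp matched at 97.4% identity, and in the one at chr12:98299502-98300164, 365 bp matched at 99.7%. The other two, at Gm10800 (6663 tags at D0 and 9144 in the iPSCs) and Gm10801 (2618 and 3517 tags), were not among the regions with such a match. A match of at least 100 bp was found in 21 common, 3 iPSC-only and 0 D0-only regions.

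The libraries between D0 and iPSCs, which the rule did not use, split the kinds in time. D0-only regions were called in 52.3% of cases at D3 and 58.0% at D6T-, and then in 13.4% (D9T-), 18.6% (D12S+) and 5.12% (4.94 to 5.30) at D16S+. iPSC-only regions were called in 32.2% of cases at D3, in 36.3% and 10.8% in the Thy-1-negative libraries, and in 38.0% at D12S+ and 45.6% (45.1 to 46.1) at D16S+. Common regions stayed between 66.9% (D9T-) and 94.3% (D6T-). These shares move with how many regions each library holds, which was lowest at D9T- and highest at D6T-, so the kinds are best compared within a library. With equal numbers of the strongest regions of every library, the D9T- shares were 28.2% of D0-only, 86.2% of common and 22.9% of iPSC-only regions. Within D3 the D0-only share (52.3%) exceeded the iPSC-only share (32.2%), and within D16S+ the order was the opposite (5.12% and 45.6%).

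**Figure D4:**
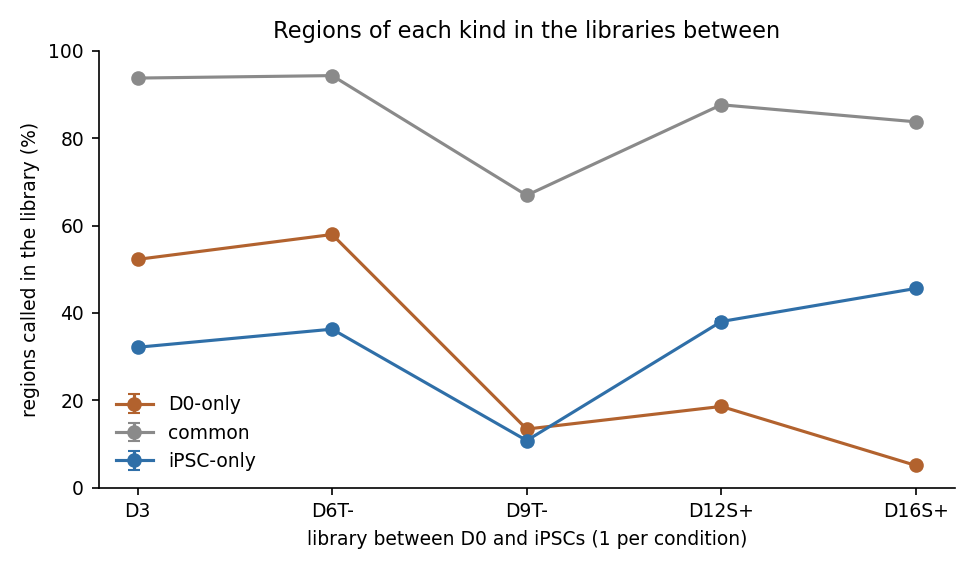
Share of D0-only, common and iPSC-only regions (vertical axis, %) that overlap a region called in each of the 5 libraries between D0 and iPSCs (horizontal axis, 1 library per condition). Bars of the 95% Wilson interval are smaller than the points. The D0-only line drops to 5.12% at D16S+ while the iPSC-only line reaches 45.6%, and all lines dip at D9T-, the library with fewest regions.

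Both libraries at the ends of that middle course gave the same split. Of D0-only regions, 27456 (47.8%) were called at D3 and not at D16S+, and 394 (0.686%) at D16S+ and not at D3. Of iPSC-only regions, 9723 (25.3%) were called at D16S+ and not at D3, and 4545 (11.8%) at D3 and not at D16S+. In none of the 5 libraries between were 20379 (35.5%) of the D0-only and 13273 (34.5%) of the iPSC-only regions called, against 457 (2.14%) of the common ones. Common regions past 2-fold differed in level the same way. Where called in both, the median log2 ratio of D16S+ over D3 was 0.40 for those higher in the iPSCs (77.1% of 1776 above 0) and -0.96 for those higher at D0 (13.8% of 413 above 0), against 0.013 for all common regions.

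Base composition set the kinds apart. The median GC content of the 200 bp around the summit was 48.5% in D0-only, 59.0% in common and 53.5% in iPSC-only regions. CpG dinucleotides are depleted from most of the mouse genome but kept in CpG islands, and a ratio of observed to expected CpG of at least 0.6 was found in 48.9% of common, 14.4% of iPSC-only and 2.52% of D0-only windows. Within promoters it was 71.0%, 29.5% and 5.30%, so the order also held there. Common regions with that ratio had a median log2 ratio of 0.35, and 10.9% of them were past 2-fold higher in the iPSCs against 0.622% higher at D0. In those under 0.6 the median was 0.07, with 6.503% and 5.15%. PCR and sequencing can recover GC-rich fragments differently between libraries, and the part of this in the ratios was not tested.

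Short motifs were then counted in the same windows, on both strands. The letters were TGANTCA for AP-1, GGAATG for TEAD, TGTGGT for RUNX, ATGCAAAT for OCT, ACAATGG for SOX, GGGNGTGG for KLF, TCAAGGTCA for ESRRB, CCGGAAG for ETS, CCAATCA for NFY and GGGGCGGGG for the GC box. OCT-SOX was TTGT, 1 free base and ATGNAAA, and CTCF was CCANNAG followed directly by NNGGC. Matches may overlap each other, and an OCT-SOX match can also hold an OCT match. A match describes the letters and is no evidence that the factor was bound.

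AP-1 letters marked the fibroblast end. They occurred in 34.1% (33.7 to 34.5) of D0-only windows, 8.77% of common and 5.68% (5.45 to 5.91) of iPSC-only windows, against 20.2% of all joined regions. Among D0-only regions the share was 16.7% in the weakest 14349 and 57.2% in the strongest 14350, and 12 of the 15 named D0-only regions held a match, against 0 of the 15 named iPSC-only ones. In common regions past 2-fold, 42.3% (38.5 to 46.2) of those higher at D0 held AP-1 letters and 3.19% (2.48 to 4.09) of those higher in the iPSCs. Common regions with the letters had a median log2 ratio of -0.27. The shares of TEAD letters (20.04% of D0-only, 11.1% of common, 12.9% of iPSC-only windows, 16.1% of all) and RUNX letters (22.4%, 11.3%, 13.6% and 17.5%) were also highest in D0-only windows. In the strongest 14350 D0-only windows they were 27.5% and 27.1%, against 14.2% and 19.3% in the weakest.

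The letters of pluripotency factors were most frequent in iPSC-only windows. OCT letters occurred in 2.26% (2.12 to 2.42) of iPSC-only, 0.932% of common and 1.00% of D0-only windows, and 1.40% of all. SOX letters occurred in 4.73% of iPSC-only, 1.71% of common and 2.70% of D0-only windows, with 3.19% in all. OCT-SOX was rare, at 158 of 38474 iPSC-only windows (0.411%), 9 common (0.0422%) and 47 D0-only windows (0.0819%). ESRRB letters were in 0.871%, 0.248% and 0.362%. KLF letters were in 14.5% of iPSC-only and 13.8% of common windows, against 5.83% of D0-only ones. In the strongest 9619 iPSC-only windows the shares were 3.43% for OCT and 7.45% for SOX, against 1.47% and 3.60% in the weakest 9618.

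The letters of 4 further motifs were most frequent in common windows. GC box letters occurred in 9.64% of common, 3.24% of iPSC-only and 0.402% of D0-only windows, and ETS letters in 8.34%, 2.94% and 0.915%. CTCF letters, whose factor bounds chromatin loops in most cell types, occurred in 9.10%, 5.60% and 2.90%, and in common windows more outside promoters (12.8%) than in them (4.44%). Common regions with CTCF letters had a median log2 ratio of 0.03, against 0.42 for those with GC box letters, of which 14.1% were past 2-fold higher in the iPSCs. NFY letters were in 6.22% of common windows, 4.16% of iPSC-only and 1.80% of D0-only windows, but outside promoters in 3.96% of common and 4.09% of iPSC-only windows.

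**Figure D5:**
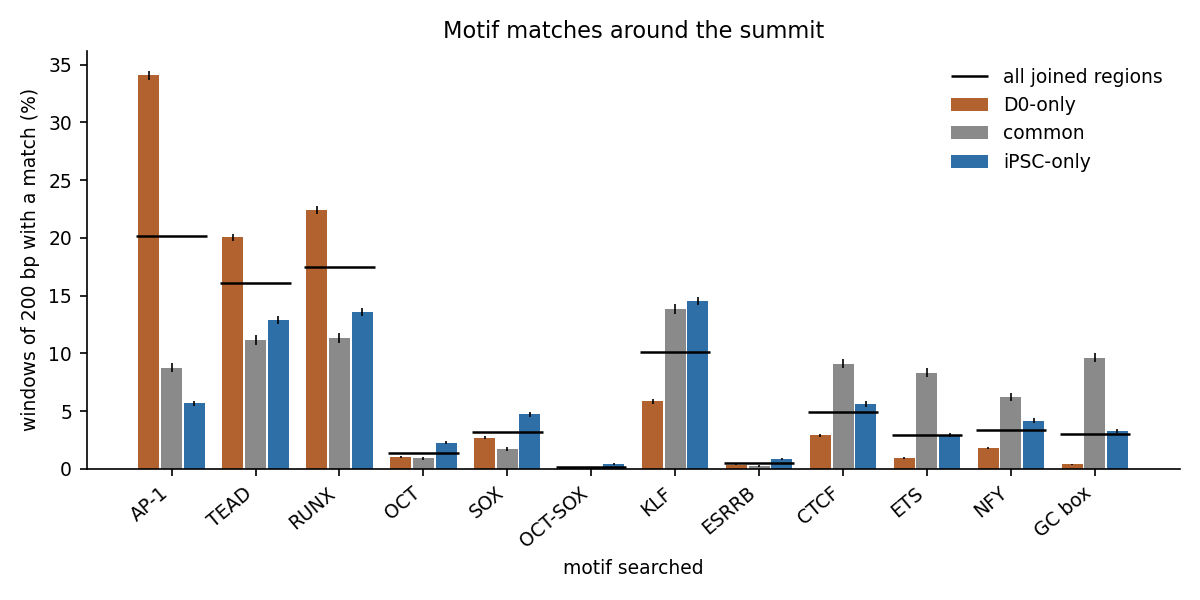
Share of 200 bp windows around the highest summit (vertical axis, %) that hold the letters of each of 12 motifs, for D0-only, common and iPSC-only regions. Thin lines on the bars are 95% Wilson intervals over regions and the black lines give the share over all joined regions. AP-1, TEAD and RUNX bars are highest for D0-only, OCT, SOX, OCT-SOX, KLF and ESRRB for iPSC-only, and CTCF, ETS, NFY and GC box for common regions.

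Repeated sequence was frequent among the strongest iPSC-only regions. A run of 24 bases in the window that also occurs in the window of another joined region was found in 20.6% of iPSC-only, 11.2% of D0-only and 8.19% of common windows. Among the 100 strongest it was found in 63 of the iPSC-only and 10 of the D0-only windows. The Vmn2r85 window printed above shared a run with 145 others, of which 141 were iPSC-only, 4 common and 0 D0-only. The windows near Skint7, Mettl15, Gp49a and Fam110b shared runs with 174, 158, 146 and 96 others, of which 173, 157, 143 and 94 were iPSC-only. The 3 windows that shared a run with that near Serpina3n were all D0-only. Among named common regions, 3 of the 15 with the highest ratios shared a run, those near Samd9l, Polr3k and Gm6483. None of the 15 with the lowest ratios did. Reads that map to several places were removed by the authors, so the tags counted in such copies are those that could be placed at 1 site.

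Genes were then described by lists, counting regions from 3 kb upstream of the TSS to the end of each gene. A region within the spans of several genes was counted for each of them. Over all 21281 protein-coding genes, 46.7% had an iPSC-only region and 44.5% a D0-only region, and 26.9% had more iPSC-only than D0-only regions against 28.3% with more D0-only than iPSC-only regions. That balance turned with the number of regions taken from D0, since with equal numbers of the strongest regions of both libraries 7050 genes had more iPSC-only and 4443 more D0-only regions. The lists were chosen with earlier results of these data known, and long genes hold more regions, so these counts are descriptions.

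Pluripotency genes lay on the iPSC side. Of the 40 listed, 29 had more iPSC-only regions and 0 more D0-only regions, with 107 iPSC-only and 33 D0-only regions in all. Within 500 bp of the TSS, 18 of the 40 had iPSC-only regions and no other kind, against 11.7% of all genes. These included Nanog, Zfp42, Sall4, Dppa2, Dppa4, Lin28a, Fgf4, Tdgf1 and Gdf3. Of their 34 common regions, 10 were past 2-fold higher in the iPSCs and 0 higher at D0, with a median log2 ratio of 0.58. Over all common regions these were 8.67%, 2.93% and 0.25, so the 0 at D0 is near the share over all.

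The core factors differed in size and in place. The promoter region of Nanog, a homeodomain factor of naive pluripotency (chr6:122656972-122657620), had 16 tags (0.602 CPM) in the iPSCs and was not called at D0, a level near the lowest called. Zfp42, a zinc finger marker of naive cells, had 4 iPSC-only regions, the strongest 110 bp upstream of the TSS with 40 tags (1.505 CPM, chr8:44392173-44392802). Sall4, a zinc finger factor that binds Oct4, had 5 iPSC-only regions of 14 to 29 tags and no other. Dppa3 had its strongest region 1.71 kb upstream, with 38 tags, and Fgf4, a growth factor gene controlled by Oct4 and Sox2, had an iPSC-only region at its TSS with 32 tags.

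Of the pluripotency regulators open at both ends, some were higher in the iPSCs and others were not. Tfcp2l1 (annotated as Tcfcp2l1), a factor of naive self-renewal, went from 12 to 36 tags at its TSS (log2 ratio 1.84), and 5 iPSC-only regions lay within the gene, the strongest with 59 tags. Klf5 had 29 and 71 tags (1.55) and Utf1 had 17 and 41 tags (1.52). Sox2 had 14 and 32 tags (1.45), and a region of Klf4, 1.95 kb inside the gene, had 20 and 60 tags (1.84). The coding sequences of Sox2 and Klf4 were also delivered by the retroviruses, so tags from the virus and from the gene cannot be told apart there. Tbx3, a T-box factor, went the other way with 73 tags at D0 and 40 in the iPSCs in its strongest common region (log2 ratio -0.61), and Klf2 had 66 and 50 tags (-0.15). Esrrb, an orphan nuclear receptor, had 15 D0-only, 4 common and 15 iPSC-only regions and none at its TSS.

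Pou5f1 itself could not be read as a promoter. A single common region of 17.5 kb (chr17:35634607-35652127) covered the whole gene in both libraries, the 4th widest of all joined regions, whose median width was 334 bp. Its highest pileup was 416 tags at D0 (13.1 CPM) and 383 in the iPSCs (14.4 CPM). Within it 29 summits were called at D0 and 30 in the iPSCs, with a median of 5.08 and 2.78 CPM. The retroviral Oct4, the GFP cassette and the gene itself cannot be told apart in these values.

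Epithelial genes also lay on the iPSC side. Of the 30 listed, 23 had more iPSC-only and 6 more D0-only regions, against 26.9% and 28.3% of all genes. Within 500 bp of the TSS, 22 had iPSC-only regions and no other kind, against 11.7% of all genes. Unlike pluripotency genes, of which 14 of 40 had a D0-only region, 18 of the 30 had one, against 44.5% of all genes. Cdh1, which encodes E-cadherin, had 8 iPSC-only regions, the strongest at its TSS with 31 tags (1.17 CPM, chr8:109126960-109127710). The promoters of Cldn3, a tight junction protein, and Perp, a desmosome protein, had 32 and 26 tags, Esrp1, an epithelial splicing factor, had 25, and Epcam had 15. Not all epithelial genes followed. Krt19 and Ocln had D0-only regions of 53 and 52 tags, and both also held weaker iPSC-only ones, of 13 tags and of 17 to 18 tags.

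Fibroblast and extracellular matrix genes lay on the D0 side by count of regions. Of the 40 listed, 25 had more D0-only and 8 more iPSC-only regions, against 28.3% and 26.9% of all genes. They held 111 D0-only and 53 iPSC-only regions. Their median length of 39.2 kb exceeds that of all genes, 15.6 kb. A D0-only region was found in 32 of the 40, against 44.5% of all genes, and an iPSC-only region in 29, against 46.7%. In level their 44 common regions were close to all common regions, with a median log2 ratio of 0.20 against 0.25. Of the 44, 0 were past 2-fold higher in the iPSCs and 3 higher at D0, against 8.67% and 2.93% of all common regions. At the TSS, 22 of the 40 had common regions alone, against 44.2% of all genes, and 7 had D0-only regions alone, against 2.87%. Those 7 were Col6a3, Dcn, Lox, Cd44, S100a4, Ddr2 and Cdh11.

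Single matrix genes showed where that accessibility was. Col6a3, a chain of collagen VI, had 4 D0-only regions of up to 38 tags, and Postn, a matricellular protein, had 1, 2.38 kb upstream of its TSS, with 35 tags. Loxl1, an elastin cross-linking enzyme, had an intronic D0-only region of 59 tags while its TSS was common. Timp3, an inhibitor of metalloproteases, had a common region 39.4 kb inside the gene with 55 and 14 tags (log2 ratio -1.72), and Axl, a receptor kinase, one of 52 and 14 tags (-1.64). Vim, the intermediate filament of mesenchymal cells, had 55 tags at D0 and 25 in the iPSCs at its promoter (-0.88), and Thy1, whose protein was used to sort the intermediate cells, 13 and 13 (0.25). Col1a2, of collagen I, had 3 D0-only regions of 16 to 23 tags.

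Contractile and Hippo pathway genes split evenly by count. Of 24 matched genes, 10 had more iPSC-only and 11 more D0-only regions, against 26.9% and 28.3% of all genes. Counting promoters only, the numbers of genes were 3 and 9. Acta2, Tagln, Cnn1 and Ankrd1 (16.7% of the 24) had D0-only regions and no other within 500 bp of the TSS, against 2.87% of all genes. In 15 of the 24 genes, among them Myl9, Tpm1, Tpm4 and Actn1, common regions alone lay there, against 44.2% of all genes. Actn1, an actin cross-linking protein, had 14 iPSC-only against 4 D0-only regions in all. The promoter of Acta2, smooth muscle actin, had 35 tags at D0 (1.10 CPM), Ankrd1, a YAP target, had 25, and Tagln, an actin-binding protein, had 27 at its TSS beside a common region 986 bp upstream with 40 and 15 tags (log2 ratio -1.16). Srf, the factor that drives many of these genes, ran the other way, with 26 and 58 tags (1.41).

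Mesenchymal transcription factors were divided, 10 of 25 with more D0-only and 9 with more iPSC-only regions (6 and 11 with equal numbers of regions). Runx2, the osteoblast regulator, had 11 D0-only regions, the strongest with 85 tags (2.68 CPM, chr17:44637172-44637961). Twist2, a basic helix-loop-helix factor, had 3 D0-only regions of 23 to 42 tags, one at its TSS. Within 500 bp of the TSS, 2 of the 25 (Runx2 and Twist2) had D0-only regions alone, against 2.87% of all genes. Another 2 (Zeb2 and Meox2) had iPSC-only regions alone, against 11.7%. The genes that encode AP-1 itself did not lie on the D0 side by count of regions. Of 12, 9 had more iPSC-only and 1 more D0-only regions, against 26.9% and 28.3% of all genes. Counting promoters only, the numbers of genes were 4 and 1. In level, the 17 common regions of the AP-1 genes had a median log2 ratio of -0.0083, below the 0.25 of all common regions. The promoter of Jun had 83 and 70 tags, a log2 ratio of 0.01. All 20 housekeeping genes had a common region, against 59.0% of all genes, and 17 had common regions alone at the TSS, against 44.2%.

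The labels were checked against markers of each cell type. Of 12 fibroblast markers, 7 had more D0-only and 1 more iPSC-only regions, and of 12 pluripotent stem cell markers 0 and 7. Over all genes these shares were 28.3% and 26.9%. Counted the same way, neural markers had 1 and 8 of 9 matched genes. Of 10 markers each, blood had 2 and 6, endoderm and trophoblast 0 and 6, and skeletal muscle 2 and 5. Endothelial markers had 5 and 3 of 10, and keratinocyte markers 5 and 2. This count thus did not single out pluripotent cells. By number of regions, endothelial markers had 43 D0-only and 15 iPSC-only regions over 10 genes, and keratinocyte markers 13 and 5. Neural markers had 9 and 27 over 9 matched genes, blood markers 4 and 11, skeletal muscle markers 3 and 10 and endoderm and trophoblast markers 5 and 16. Accessibility near a gene does not show that it was transcribed, and whether other cell types were present was not tested.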

How the data were processed

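ATAC-Seq was measured in 9 samples, 1 library each. Per the methods and file headers, the authors mapped reads to mm9 with STAR, removed multi-mapping and duplicate reads, and called peaks without a control in MACS2 (2.1.0.20151222) at a q-value of 0.05 with tags extended to 200 bp. Each deposited row is a summit with its pileup (a signal in tags), its fold enrichment (a ratio over the genome mean) and its −log10 p-value and q-value. Total tags were taken from the headers.

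From these files, rows of a peak were joined, overlapping peaks merged, and regions of chromosomes 1 to 19 sharing at least 1 bp called common. The level of a region is its highest pileup over total tags (CPM), and 2-fold was the limit for a call. Gene models were those of GENCODE vM1, which uses mm9 coordinates. A region was named for the protein-coding gene with the nearest TSS. Named regions are the 5 strongest of each kind per position class and, among common regions with at least 20 tags in the higher library, the 5 highest and 5 lowest ratios per class, besides the 5 strongest common regions and the listed genes, of which those described were picked after their values were seen. The members and lists were chosen with earlier results of these data known, and the exact letters of the motifs and the shared runs were set after the data were seen. Matches to mitochondrial sequence (BLAST 2.17.0, E-value up to 1e-10) covered at least 100 bp. Python 3.11.15, numpy 2.4.6, pandas 2.3.3, scipy 1.17.1 and pysam 0.24.0 were used. The scripts were tested on simulated data and recovered 22 of 22 planted answers. Alternatives covered the peak threshold, merging distance, overlap, promoter definition, centring, window and gene span. Of the listed genes, Flna and Sox1 were not matched on these chromosomes. The result for 1 named region is not reported here.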

Additional observations from a re-analysis of the deposited data

How the results depend on the processing

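No paired analysis was possible because each group had 1 library. Results whose balance turned by centring were the split of calls past 2-fold, the split of counting intervals and the sign of the median log2 ratio. Equal numbers of regions turned the balances of D0-only against iPSC-only regions over all genes, mesenchymal transcription factors and contractile and Hippo pathway genes. The balance over all genes also turned by counting promoters only. Of the values that answer a comparison, 30 stayed within their limits and 43 moved. With the stronger 50% of regions of each library there were 27694 D0-only, 11975 common and 18102 iPSC-only regions. The median log2 ratio was 0.19 with fold enrichment, 0 when centred on common regions and -0.054 when centred on common promoters, with 844 regions past 2-fold higher in iPSCs and 1312 at D0 in the first centring and 653 and 1413 in the second. The promoter share of D0-only and iPSC-only regions was 4.50% and 12.3% with a promoter from 1 kb upstream to 100 bp downstream. For D0-only, common and iPSC-only regions it was 7.86%, 41.1% and 14.9% with protein-coding genes only, and 9.13%, 45.9% and 18.7% with equal numbers of regions. With equal numbers, 51.6%, 91.6% and 20.6% of the kinds were called at D3 and 7.12%, 91.5% and 55.8% at D16S+. With an overlap of 50%, 50.4% of D0-only and 29.4% of iPSC-only regions were called at D3, and 84.7% of common and 43.1% of iPSC-only regions at D16S+. AP-1 letters were in 21.6%, 5.05% and 2.91% of the kinds in windows of 100 bp, in 34.9%, 11.9% and 5.93% outside promoters, and in 34.6% of D0-only and 5.29% of iPSC-only windows without shared runs, an alternative chosen after seeing the data. The kind with the highest share was the same for 12 of 12 motifs in windows of 100 bp and without shared runs, and for 11 outside promoters, where NFY differed. Counting promoters only, 3412 genes had more iPSC-only and 1722 more D0-only regions, against 5 and 13 fibroblast and matrix genes and, for D0-only, 2 epithelial genes. With equal numbers of regions, 7050 genes had more iPSC-only and 4443 more D0-only regions, 13 fibroblast and matrix genes had more iPSC-only (22 more D0-only) and 3 epithelial genes more D0-only regions. Depth limits every absence to pileups under about 10 tags, no result has a replicate error, and cell state, sorting, culture and library cannot be told apart.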

Other observations

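Hox genes, the factors of the body axis, were a list not described above. Of 39, 26 had more iPSC-only and 5 more D0-only regions, against 26.9% and 28.3% of all genes. Summed over genes, these were 53 iPSC-only and 17 D0-only regions, and the median gene length was 4.06 kb. Neighbouring Hox genes can share a region, which was then counted for each of them. Within 500 bp of the TSS, 10 had iPSC-only regions alone, 3 had D0-only regions alone and 13 had none, against 11.7%, 2.87% and 36.4% of all genes. The median log2 ratio of their 15 distinct common regions was 0.11, and 0 of these regions were past 2-fold in either direction. Over all common regions the median was 0.25, with 8.67% past 2-fold higher in the iPSCs and 2.93% higher at D0. With 15 regions, a count of 0 is near those shares.

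The knockdown libraries of day 6 gave a further view of the kinds. Regions that were D0-only overlapped a region called in 20.3% of cases with the non-targeting siRNA (siNT) and 21.1% with that against the histone variant H3.3 (siH3.3), and in 58.0% in D6T-. Common regions were called in 73.5% and 72.5%, and iPSC-only regions in 12.1% and 11.9%. The siRNA libraries held 45312 and 46211 regions, against 129532 at D6T-.

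Outside chromosomes 1 to 19, the mitochondrial genome was 1 peak with 27 summits in both libraries, with a highest pileup of 13802 tags at D0 and 20771 in the iPSCs. The X chromosome held 969 peaks at D0 and 800 in the iPSCs. Of all joined regions, 5 were at least 10 kb wide, and all were common. The widest, 48.1 kb at Sfi1, had 87 summits at D0 and 78 in the iPSCs. The 2nd and 5th widest lay at Heatr7b1.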
